A study of Homo sapiens with 12 samples.

Results

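The epithelial and mesenchymal identity genes are 48 listed symbols, 24 that mark epithelial cells and 24 that mark mesenchymal cells, followed in 2 human triple-negative breast cancer cell lines. They were taken by name from the annotation of the arrays, and 28 of the 48 had a named transcript cluster, 16 epithelial and 12 mesenchymal, among 14884 genes tested. The other 20 (CDH1, CDH3, PRSS8, SPINT1, SPINT2, RAB25, MAL2, AP1M2, CAV1, PDGFRB, TGFB2, CDH2, CDH11, COL5A1, COL6A1, COL6A2, SPARC, POSTN, TGFBI and MMP2) had no cluster named in that annotation and were not analysed here. Thus E-cadherin and N-cadherin, the usual pair of markers, play no part in what follows. No filter on low values was applied, so all 28 measured members entered every test.

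RNA came from HCC70 cells under JQ1 at 500 nM, HCC70 cells under vehicle (DMSO at 0.1%), MDA-MB-231 cells under JQ1 at 500 nM and MDA-MB-231 cells under vehicle (DMSO at 0.1%), all kept for 72 hours, with 3 Human Gene 2.0 ST arrays in each of the 4 groups. HCC70 is a basal-like line and MDA-MB-231 a line known for its mesenchymal features, and JQ1 is a small molecule that displaces the BET bromodomain proteins from acetylated chromatin. Each of the 2 lines is a single cancer, and since the labels do not state whether replicate arrays are separate cultures, the p-values cover the spread among these samples alone, which may be technical. Values are log2 signals, and the number of arrays limits their precision.

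Epithelial cells are held together by adherens and tight junctions and sort their membranes into apical and basal faces. Their programme is kept up by the Grainyhead-like and OVO-like transcription factors and by the splicing regulators ESRP1 and ESRP2, and it is repressed by the ZEB, Snail and Twist factors, which with TGF-beta signalling drive the epithelial-mesenchymal transition. Mesenchymal cells express vimentin filaments, matrix proteins such as fibronectin and fibrillin-1, and the receptor tyrosine kinase AXL. In triple-negative breast cancer the balance of these programmes is a main axis along which cell lines differ.

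Across genes, replicates correlated at r = 0.989 to 0.995, JQ1 with vehicle arrays within a line at 0.962 to 0.978, and HCC70 with MDA-MB-231 arrays at 0.875 to 0.90. Across the 6 measured keratins the mean log2 level per array was 8.68 to 8.81 in HCC70 JQ1, 8.61 to 8.67 in HCC70 vehicle, 7.63 to 7.85 in MDA-MB-231 JQ1 and 7.18 to 7.56 in MDA-MB-231 vehicle. The basal keratin KRT5 lay at 8.42 and 8.53 in HCC70 (JQ1 and vehicle) and at 4.26 and 4.67 in MDA-MB-231 (JQ1 and vehicle). Its difference was the largest of the 6. Under vehicle 4 of the 6 keratins were higher and 1 lower in HCC70, where 23.8% of all genes were higher and 23.2% lower. The lower one was KRT18 (-0.28 ± 0.091, SE, limma adjusted p = 0.023). The hormone receptor genes ESR1 (4.89 to 5.09) and PGR (3.65 to 3.93) were low in every group mean. Of the blood cell markers 3 of 8 were measured. LYZ stayed at 3.67 to 3.84, while CD14 was 8.52 in HCC70 vehicle. CSF1R fell by 0.45 ± 0.14 under JQ1 in MDA-MB-231 (SE, limma adjusted p = 0.032). Of the endothelial, stromal and adipocyte markers 6 of 10 were measured, with mean levels per array of 4.31 to 4.52 in all 12 arrays. The matrix proteoglycan gene DCN lay at 2.77 to 2.87. Of these 6 genes, 4 lay below the lower quartile of all genes in each HCC70 group and 3 in each MDA-MB-231 group. Under vehicle KDR was lower in HCC70 by at least 0.40 ± 0.0985 (SE, limma adjusted p = 0.0042).

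The first comparison set the lines side by side under vehicle. All 16 measured epithelial members were higher in HCC70 and 11 of 12 mesenchymal members were lower, and for these 27 genes the 3 HCC70 arrays did not overlap the 3 MDA-MB-231 arrays. Over all genes tested the arrays did not overlap for 55.2%, with all HCC70 arrays higher for 28.5% and all lower for 26.7%. By the test, 23.8% of all genes were higher and 23.2% lower in HCC70, 47.0% in either direction (limma, adjusted p threshold of 0.05). The median log2 difference was 2.87 over the epithelial members and -2.96 over the mesenchymal members, against 0.03 over all genes tested. The lists are textbook markers of cell identity, chosen with earlier results of these data known, so this split describes the lines and is not independent evidence. As the samples are bulk RNA, fewer cells of a state and less RNA per cell cannot be told apart.

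Among regulators of the epithelial state, ESRP1, which directs epithelial splicing, read 11.18, 11.06 and 11.01 in HCC70 vehicle, against 4.30, 4.67 and 4.71 in MDA-MB-231 vehicle. The MDA-MB-231 mean lay below the lower quartile of all genes on those arrays (4.78), a range in which dim signals have little meaning, so the difference is read as at least 91.7-fold. Its paralogue ESRP2 differed by 4.24-fold only, with 8.92 ± 0.059 in HCC70 and 6.84 ± 0.072 in MDA-MB-231 (SD, n = 3 each). GRHL2, a Grainyhead-like activator of junction genes, was higher in HCC70 by at least 36.4-fold, and GRHL1 by 10.5-fold. The OVO-like repressors OVOL1 and OVOL2 differed by 2.64-fold and 2.49-fold. OVOL1 has 2 clusters with unlike values. The one not used for the gene read 5.12 ± 0.15 in HCC70 and 5.04 ± 0.21 in MDA-MB-231 (SD, n = 3 each). Its difference of 0.08 ± 0.15 did not pass (limma adjusted p = 0.73 over clusters). The strand that each OVOL1 cluster reads was not known here, so whether both measure the OVOL1 transcript was not tested.

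The 8 measured tight junction genes were all higher in HCC70. CLDN1, a claudin that seals the barrier, differed by 23.5-fold (10.15 ± 0.070 in HCC70 and 5.60 ± 0.20 in MDA-MB-231), CLDN7 by 11.3-fold, the tight junction membrane protein gene OCLN by 8.97-fold, and MARVELD2, which encodes tricellulin, by 7.18-fold. CLDN4 and CLDN3 had the smallest differences of the claudins, 2.01-fold and 3.20-fold. LSR, which encodes angulin-1 of tricellular contacts, had 11.44 ± 0.043 in HCC70 and still 9.45 ± 0.087 in MDA-MB-231. The surface adhesion molecule gene EPCAM differed by 7.46-fold and ST14, which encodes the membrane protease matriptase, by 16.5-fold.

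On the mesenchymal side, AXL read 5.96, 5.55 and 5.58 in HCC70 vehicle, against 12.52, 12.66 and 12.47 in MDA-MB-231 vehicle. The difference was -6.86 ± 0.11 on the log2 scale. After a difference or change, ± is the SE of the limma coefficient here and below. After the level of a group, ± is the SD of its arrays throughout. IGFBP7, a secreted binding protein, differed by -6.57 ± 0.12 and the membrane protein gene EMP3 by -6.02 ± 0.081. EDIL3, an integrin-binding matrix protein, was at least 98.1-fold lower in HCC70, where its arrays read 5.01, 4.07 and 4.73. Of the transcription factors, ZEB1 was lower by at least 9.64-fold and SNAI2, which encodes Slug, by 5.04-fold, although SNAI2 stayed at 8.45 ± 0.032 in HCC70. TWIST1 lay below the lower quartile in all 4 groups (means of 3.61 to 3.94) and its difference of -0.06 ± 0.15 did not pass (adjusted p = 0.79). FN1, which encodes fibronectin, was the mesenchymal matrix gene that HCC70 also held at a high level, 9.18 ± 0.038 against 11.58 ± 0.063 in MDA-MB-231.

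**Figure D1:**
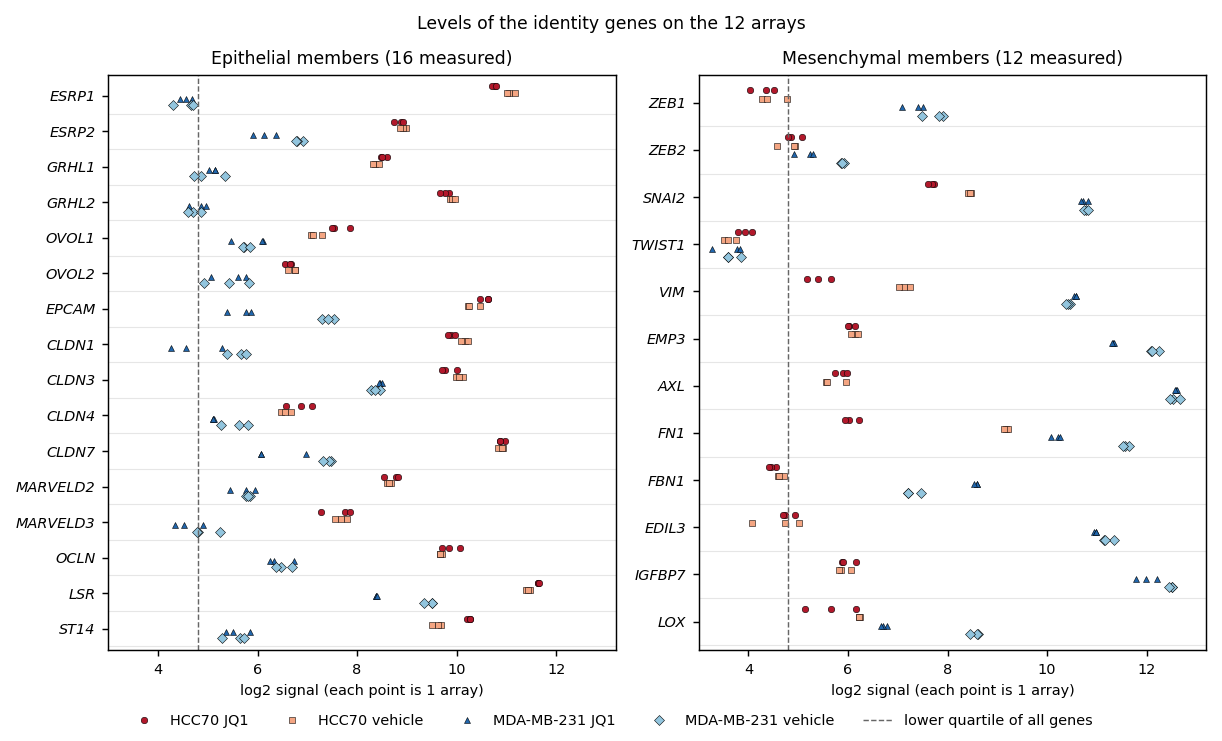
Log2 signal (horizontal axis) of each measured member on each of the 12 arrays, 1 point per array, with epithelial members on the left and mesenchymal members on the right; the dashed line is the lower quartile of all genes, averaged over the 4 groups. All 16 epithelial members lie higher in HCC70, and the FN1 and VIM points of HCC70 JQ1 stand apart from those of HCC70 vehicle.

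Promoter sequences are shown for 6 members, because the repressors ZEB1 and SNAI2 bind an E-box and differed between the lines. RefSeq (GRCh38.p14) gave a promoter window for 17 of the 28 measured members, 8 epithelial and 9 mesenchymal, and the 250 bases before the most upstream start were searched for CAGGTG on both strands (CACCTG on the other). The motif was present in 1 of 8 epithelial windows (OCLN) and in 3 of 9 mesenchymal windows (ZEB1, AXL and EDIL3), while 17.5% of the 27305 windows of all genes held it. The palindrome AACCGGTT, the Grainyhead-like motif, was in 0 of the 17 windows and in 0.103% of all windows. The sequences below run 5′ to 3′ on the strand of the gene, with the E-box in capitals. OCLN is the 1 epithelial window with the motif, CLDN7 and LSR fell under JQ1 in MDA-MB-231, FN1 fell in both lines, and AXL and ZEB1 hold the motif on the mesenchymal side.
OCLN, chr5:69492297-69492546, plus strand: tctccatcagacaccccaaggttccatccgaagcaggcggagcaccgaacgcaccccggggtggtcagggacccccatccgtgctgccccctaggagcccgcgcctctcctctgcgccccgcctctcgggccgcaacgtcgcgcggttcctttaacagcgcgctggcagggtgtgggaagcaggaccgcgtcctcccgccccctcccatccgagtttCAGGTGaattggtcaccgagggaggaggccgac
CLDN7, chr17:7263214-7263463, minus strand: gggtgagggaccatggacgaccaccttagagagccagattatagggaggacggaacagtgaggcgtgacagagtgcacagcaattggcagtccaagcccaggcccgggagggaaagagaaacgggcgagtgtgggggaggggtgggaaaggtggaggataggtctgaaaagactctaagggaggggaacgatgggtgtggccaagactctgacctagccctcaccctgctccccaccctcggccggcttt
LSR, chr19:35248752-35249001, plus strand: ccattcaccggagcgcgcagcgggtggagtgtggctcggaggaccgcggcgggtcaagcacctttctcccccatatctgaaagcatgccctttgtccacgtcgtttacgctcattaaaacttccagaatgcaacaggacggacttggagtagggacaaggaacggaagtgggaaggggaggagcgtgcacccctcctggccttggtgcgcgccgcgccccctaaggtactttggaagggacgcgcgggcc
FN1, chr2:215436069-215436318, minus strand: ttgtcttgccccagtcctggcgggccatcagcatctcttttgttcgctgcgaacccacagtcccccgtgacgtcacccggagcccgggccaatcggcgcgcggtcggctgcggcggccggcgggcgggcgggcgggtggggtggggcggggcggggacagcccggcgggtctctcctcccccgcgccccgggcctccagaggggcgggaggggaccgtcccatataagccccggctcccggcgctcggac
AXL, chr19:41218973-41219222, plus strand: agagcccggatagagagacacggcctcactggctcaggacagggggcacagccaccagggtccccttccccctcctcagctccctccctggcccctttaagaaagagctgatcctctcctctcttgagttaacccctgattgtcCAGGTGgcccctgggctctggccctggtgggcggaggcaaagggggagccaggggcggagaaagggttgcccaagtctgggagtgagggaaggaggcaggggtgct
ZEB1, chr10:31318167-31318416, plus strand: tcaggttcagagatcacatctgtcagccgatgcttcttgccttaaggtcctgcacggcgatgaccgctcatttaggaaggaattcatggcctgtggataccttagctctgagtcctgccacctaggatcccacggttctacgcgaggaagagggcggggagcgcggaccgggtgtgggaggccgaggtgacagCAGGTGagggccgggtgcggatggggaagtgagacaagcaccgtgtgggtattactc
A match is only a run of letters in a window, and no binding was measured. At other starts of genes counted here as without the motif, 1 of 2 windows of CLDN7 held it (with 4 copies) and 2 of 3 windows of LOX did. The genes counted as with the motif depend on the start too. ZEB1 held it in 2 of 7 windows and AXL in 1 of 2, while OCLN and EDIL3 held it in 2 of 2 each. The GC content of these windows had a median of 66.6% over the epithelial and 59.2% over the mesenchymal members, against 57.6% over all windows.

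The next comparison asked what JQ1 did to identity genes in MDA-MB-231. Of the 16 epithelial members 6 fell, 0 rose and 10 did not pass. Of the 12 mesenchymal members 5 fell, 1 rose and 6 did not pass. Over all genes tested 17.0% fell and 10.8% rose, 27.8% in either direction (limma, adjusted p threshold of 0.05), and the median log2 change was -0.08 over the epithelial members, -0.33 over the mesenchymal members and 0.02 over all genes.

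EPCAM had the largest epithelial fall. It read 5.76, 5.87 and 5.39 in MDA-MB-231 JQ1, against 7.29, 7.53 and 7.41 in MDA-MB-231 vehicle, a 3.34-fold fall (log2 change -1.74 ± 0.13, adjusted p = 4.3e-07). All 3 JQ1 arrays lay below all 3 vehicle arrays. LSR read 8.37, 8.37 and 8.40 in JQ1, against 9.50, 9.50 and 9.35 in vehicle, and fell 2.10-fold (-1.07 ± 0.075). Its arrays were tightly grouped on both sides and did not overlap.

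CLDN7 read 6.06, 6.07 and 6.98 in MDA-MB-231 JQ1, against 7.48, 7.43 and 7.31 in vehicle, a 2.06-fold fall (-1.04 ± 0.19, adjusted p = 0.0012). JQ1 replicate 3 stood between the other JQ1 arrays and the vehicle arrays, and without it the change was -1.35. CLDN1 read 4.26, 5.28 and 4.57 in JQ1, against 5.66, 5.76 and 5.38 in vehicle, and fell by at least 0.90 ± 0.20, a lower bound since the JQ1 mean lay below the lower quartile. ESRP2 fell 1.62-fold (-0.70 ± 0.11), with 6.14 ± 0.23 in JQ1 and 6.84 ± 0.072 in vehicle. CLDN4 fell by 0.45 ± 0.14 (adjusted p = 0.034), a call that ended with the replicate number as a block (adjusted p = 0.054), with median centring (0.063), with only the arrays compared (0.053) and without any 1 of 5 arrays, namely the 3 JQ1 arrays and vehicle replicates 1 and 2 (adjusted p up to 0.14).

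The 10 epithelial members that did not pass had log2 changes between -0.35 (MARVELD3) and 0.13 (OVOL1). Among them CLDN3, which the line held at 8.37 ± 0.094 in vehicle, differed by 0.11 ± 0.095 (adjusted p = 0.46). ESRP1 lay below the lower quartile under both treatments (4.56 in JQ1 and 4.56 in vehicle), and GRHL2 (4.81 in JQ1 and 4.72 in vehicle) at or just below it. For genes this dim a further fall could not have been seen.

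Mesenchymal genes of MDA-MB-231 went both ways. LOX, the enzyme that cross-links collagen and elastin, read 6.79, 6.70 and 6.67 in JQ1, against 8.62, 8.59 and 8.46 in vehicle, and fell 3.56-fold (-1.83 ± 0.19). FN1 read 10.22, 10.25 and 10.07 in JQ1, against 11.57, 11.64 and 11.52 in vehicle, and fell 2.64-fold (-1.40 ± 0.091). FBN1, which encodes fibrillin-1 of elastic microfibrils, moved the other way, with 8.60, 8.60 and 8.54 in JQ1, against 7.21, 7.47 and 7.20 in vehicle, a 2.44-fold rise (1.29 ± 0.091, adjusted p = 3.7e-07). None of these 3 genes had overlapping groups, though the share of all genes without overlap under JQ1 was not counted.

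EMP3 fell 1.78-fold, with 11.32 ± 0.021 in JQ1 and 12.15 ± 0.087 in vehicle. IGFBP7 fell 1.41-fold (-0.49 ± 0.12, adjusted p = 0.0076). ZEB2, the dimmer of the ZEB repressors here, read 5.23, 4.92 and 5.29 in JQ1, against 5.92, 5.86 and 5.87 in vehicle, and fell by 0.74 ± 0.12. The other transcription factors did not pass: ZEB1 had -0.41 ± 0.17 (adjusted p = 0.097), SNAI2 had -0.04 ± 0.076 at 10.74 ± 0.073 in JQ1, and TWIST1 stayed dim. AXL (0.03 ± 0.11, adjusted p = 0.88) and EDIL3 (-0.25 ± 0.18, adjusted p = 0.36) also did not pass.

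VIM has 3 transcript clusters in the annotation, all paired with the same RefSeq transcript, and they did not agree in MDA-MB-231. On the cluster with the highest mean, used for the gene, VIM read 10.58, 10.55 and 10.58 in JQ1, against 10.47, 10.41 and 10.38 in vehicle, a change of 0.15 ± 0.11 that did not pass (adjusted p = 0.37) although the groups did not overlap. On the next cluster it read 10.53, 10.42 and 10.40 in JQ1, against 9.68, 9.74 and 9.77 in vehicle (0.72 ± 0.081, adjusted p = 2.4e-05 over the 16098 clusters with a symbol). On the third it read 10.82, 10.88 and 10.71 in JQ1, against 9.82, 9.98 and 9.94 in vehicle (0.89 ± 0.20, adjusted p = 0.0046). With the mean of the clusters VIM was called (0.59, adjusted p = 0.00074). VIM overlaps the antisense gene VIM-AS1 in RefSeq, and the strand that each cluster reads was not known here, so sense and antisense signal cannot be told apart.

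**Figure D2:**
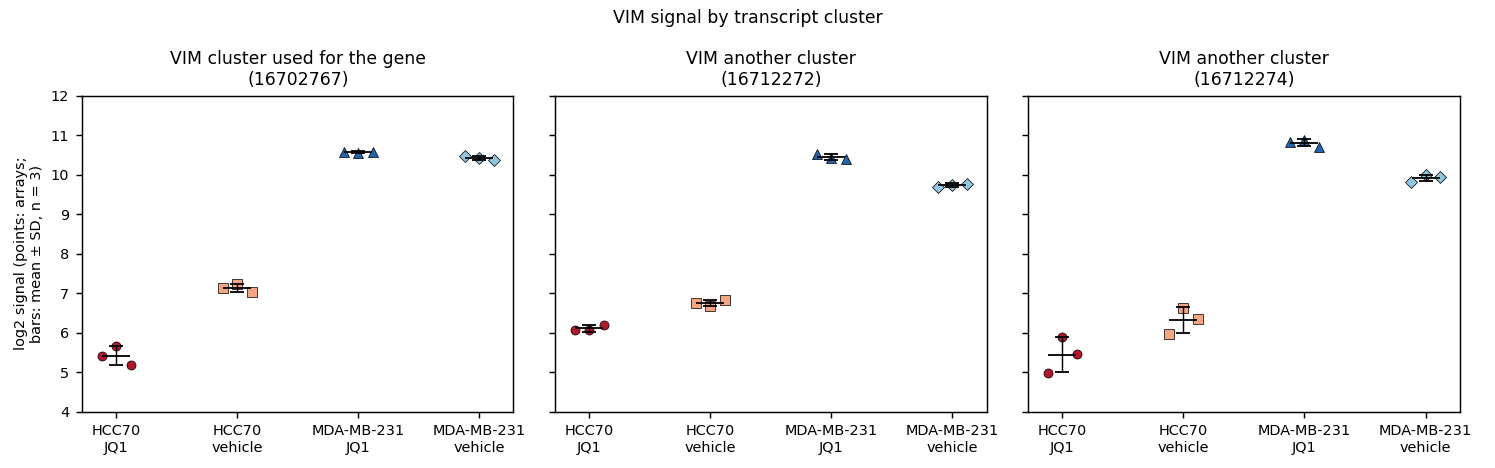
Log2 signal (vertical axis) of the 3 transcript clusters named VIM, 1 panel each, with points for arrays and bars for the mean ± SD (n = 3) in the 4 groups. HCC70 JQ1 lies below HCC70 vehicle in all 3 panels, whereas the MDA-MB-231 groups lie close together on the cluster used for the gene and apart on the other clusters.

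The same treatment in HCC70 moved few epithelial members past the threshold. Of 16 epithelial members 1 rose, 0 fell and 15 did not pass, and of 12 mesenchymal members 4 fell, 0 rose and 8 did not pass. Over all genes tested 9.18% rose and 12.5% fell, 21.7% in either direction (limma, adjusted p threshold of 0.05). The median log2 change was 0.04 over the epithelial members, -0.12 over the mesenchymal members and 0.01 over all genes.

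FN1 had the largest change of any member in either line. It read 6.02, 6.22 and 5.94 in HCC70 JQ1, against 9.18, 9.21 and 9.14 in HCC70 vehicle, an 8.66-fold fall (-3.12 ± 0.091, adjusted p = 1.6e-09), and the groups lay far apart. VIM read 5.40, 5.66 and 5.18 in JQ1, against 7.12, 7.24 and 7.02 in vehicle, a 3.29-fold fall (-1.72 ± 0.11). Its other clusters fell as well, by 0.65 ± 0.081 and 0.88 ± 0.20 (adjusted p = 9.7e-05 and 0.0065 over clusters). The direction in HCC70 was the same on all 3, but the strand that each cluster reads was not known. They are therefore not counted as repeated measures of the VIM transcript. On the third VIM cluster the JQ1 arrays read 4.99, 5.88 and 5.45, against 5.97, 6.63 and 6.35 in vehicle.

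SNAI2, the 1 mesenchymal transcription factor that HCC70 held well above the lower quartile, read 7.73, 7.68 and 7.61 in JQ1, against 8.42, 8.48 and 8.45 in vehicle, and fell 1.72-fold (-0.78 ± 0.076). LOX read 5.66, 5.14 and 6.16 in JQ1, against 6.22, 6.24 and 6.22 in vehicle, and fell by 0.58 ± 0.19 (adjusted p = 0.042). The JQ1 arrays of LOX were widely spread, and the call ended without any 1 of 11 of the 12 arrays, every array but HCC70 JQ1 replicate 3 (adjusted p up to 0.14, with a change of -0.32 without HCC70 JQ1 replicate 2), with quantile normalization (0.051) or median centring (0.068), and with the HCC70 arrays fitted alone (0.11). ZEB1, TWIST1, FBN1 and EDIL3 lay below the lower quartile under both treatments, so falls of these genes could not have been measured.

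ST14 was the epithelial member that rose in HCC70. It read 10.21, 10.27 and 10.26 in JQ1, against 9.50, 9.68 and 9.62 in vehicle, a 1.56-fold rise (0.64 ± 0.14, adjusted p = 0.0039). The other epithelial members had log2 changes between -0.32 (ESRP1, adjusted p = 0.066) and 0.47 (OVOL1, adjusted p = 0.051). These 2 genes and LSR (0.21 ± 0.075, adjusted p = 0.070) sat close to the threshold and were called under some of the other settings. CLDN7, at 10.91 ± 0.062 in JQ1 and 10.90 ± 0.052 in vehicle, had a change of 0.01 ± 0.19. EPCAM had 10.57 ± 0.088 in JQ1 and 10.31 ± 0.13 in vehicle (0.26 ± 0.13, adjusted p = 0.17).

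**Figure D3:**
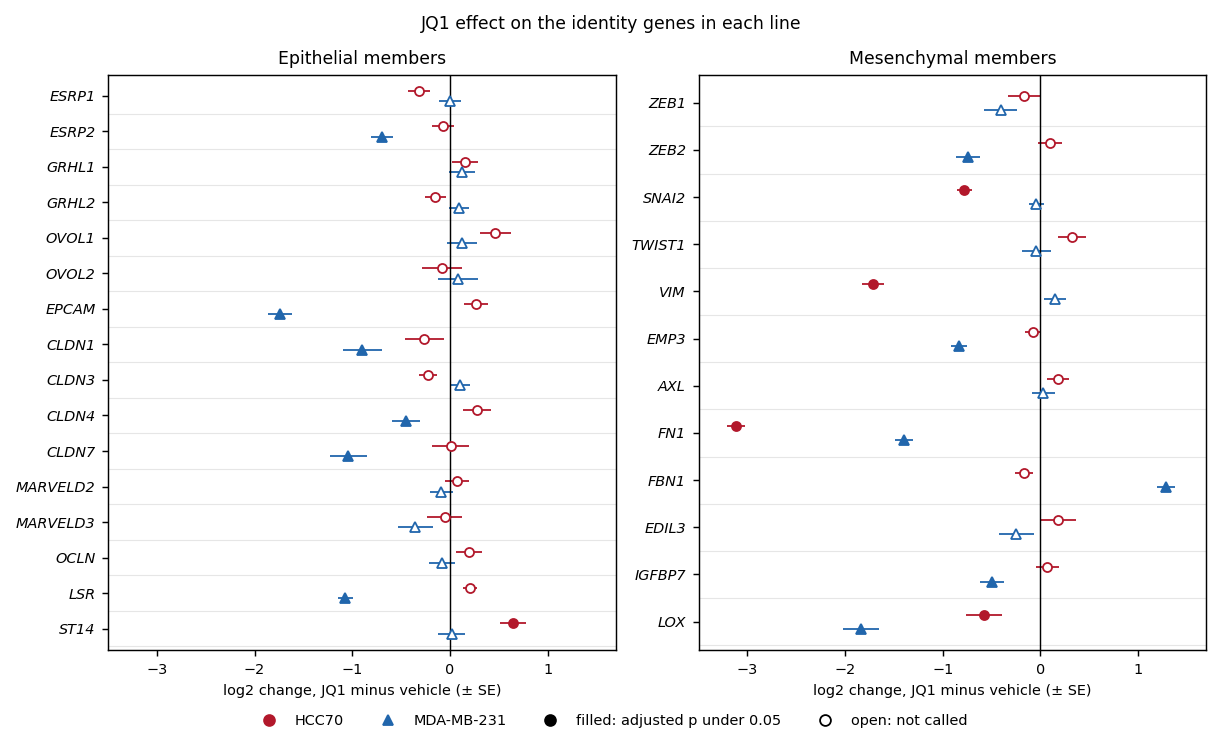
Log2 change (JQ1 minus vehicle, ± SE, horizontal axis) of each measured member in HCC70 (circles) and MDA-MB-231 (triangles), with filled symbols for an adjusted p under 0.05. EPCAM, LSR and CLDN7 lie left of 0 in MDA-MB-231 only, FN1 and LOX lie left of 0 in both lines, and FBN1 lies right of 0 in MDA-MB-231.

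Whether the JQ1 effects differed between the lines was tested directly, as the effect in HCC70 minus that in MDA-MB-231. Of the 28 members 14 passed, 6 epithelial and 4 mesenchymal members with a positive difference and 4 mesenchymal members with a negative one, where 15.0% of all genes passed in either direction (9.02% positive and 5.95% negative). As the members were chosen with earlier results of these data known, this count describes them and is not independent evidence. A positive difference means that the change was less downward, or more upward, in HCC70.

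EPCAM had the largest positive difference, 2.00 ± 0.18 (adjusted p = 9.9e-06), with changes of 0.26 in HCC70 and -1.74 in MDA-MB-231. LSR followed at 1.28 ± 0.11, with changes of 0.21 in HCC70 and -1.07 in MDA-MB-231. CLDN7 differed by 1.05 ± 0.27 (adjusted p = 0.020) and ESRP2 by 0.63 ± 0.16 (adjusted p = 0.016). CLDN4 (0.73 ± 0.20, adjusted p = 0.029) and ST14 (0.63 ± 0.19, adjusted p = 0.044) passed too, but the call ended without any 1 of 9 arrays for CLDN4 and 10 of the 12 arrays for ST14 (adjusted p up to 0.073 and 0.10), and for CLDN4 also with the replicate number as a block (adjusted p = 0.053). CLDN1, with changes of -0.26 in HCC70 and -0.90, a bound, in MDA-MB-231, did not pass (0.64 ± 0.28, adjusted p = 0.16).

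On the mesenchymal side the differences ran both ways. VIM differed by -1.87 ± 0.16 (adjusted p = 6.9e-06). Its other clusters, whose strand was not known, differed by -1.37 ± 0.12 and -1.77 ± 0.28. FN1 differed by -1.72 ± 0.13, since it fell in both lines but further in HCC70. FBN1 differed by -1.45 ± 0.13, a value that rests on the rise in MDA-MB-231 because FBN1 was below the lower quartile in HCC70. SNAI2 differed by -0.74 ± 0.11.

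LOX (1.26 ± 0.26), ZEB2 (0.84 ± 0.18) and EMP3 (0.75 ± 0.11) had positive differences, with their falls in MDA-MB-231. In HCC70 ZEB2 lay at the lower quartile and EMP3 and LOX at 6.14 ± 0.069 and 6.23 ± 0.014 in vehicle. IGFBP7 (0.57 ± 0.17, adjusted p = 0.041) lost its call with the replicate number as a block (adjusted p = 0.058), when the 3 arrays numbered 3 were dropped (0.39, adjusted p = 0.13, an alternative chosen after seeing the data) and without any 1 of 9 arrays (adjusted p up to 0.099).

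The same difference can be read as the change of the gap between the lines, which was compared under JQ1 as well. Under JQ1 all 16 epithelial members were higher in HCC70 and 10 of 12 mesenchymal members were lower, while 24.5% of all genes were higher and 21.8% lower, 46.3% in either direction. The EPCAM gap was 4.90 ± 0.13 under JQ1 and 2.90 ± 0.13 under vehicle. For LSR it was 3.26 ± 0.075 under JQ1 and 1.99 ± 0.075 under vehicle, and for VIM -5.16 ± 0.11 under JQ1 and -3.29 ± 0.11 under vehicle. The LOX gap was narrower, -1.07 ± 0.19 under JQ1 and -2.33 ± 0.19 under vehicle. ZEB2 no longer differed past the threshold under JQ1 (-0.24 ± 0.12, adjusted p = 0.14), against -1.08 ± 0.12, a bound, under vehicle. Both readings use the same 12 arrays and share their vehicle groups, so they are not separate evidence.

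**Figure D4:**
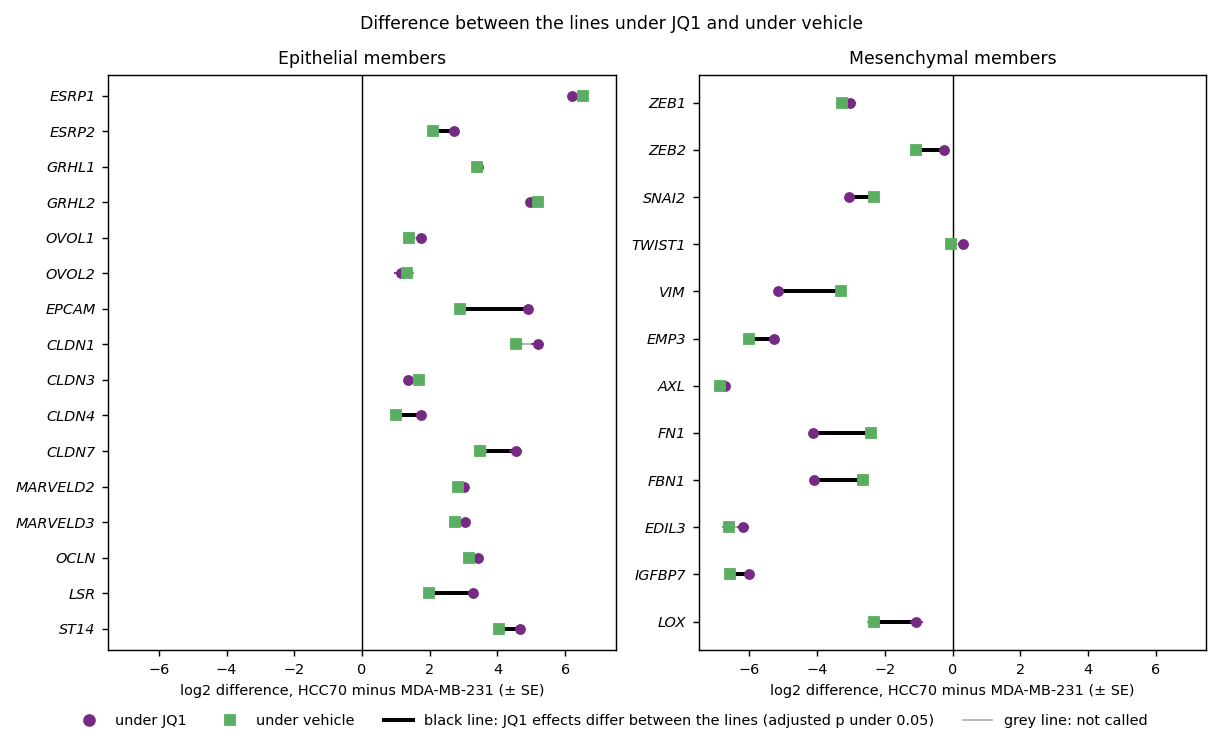
Log2 difference between the lines (HCC70 minus MDA-MB-231, ± SE, horizontal axis) of each measured member under JQ1 (circles) and under vehicle (squares), joined by a black line where the JQ1 effects differed between the lines. The gap was 4.90 under JQ1 and 2.90 under vehicle for EPCAM, and -1.07 under JQ1 and -2.33 under vehicle for LOX.

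Other genes of these pathways, from lists kept apart from the members, gave context. The shares over all genes to read these counts against are 9.18% that rose and 12.5% that fell in HCC70, and 10.8% that rose and 17.0% that fell in MDA-MB-231, and in lists this short several counts are near them. Between the lines under vehicle, 3 of 13 measured EMT-promoting transcription factors were higher and 4 lower in HCC70. Over all genes 23.8% were higher and 23.2% lower. KLF8 (6.61-fold) and SNAI1 (1.51-fold) were higher in HCC70, and HMGA2 (9.31-fold) and ETS1 (3.29-fold) were lower. Under JQ1, 2 of these 13 factors fell and 0 rose in HCC70, and 3 fell and 1 rose in MDA-MB-231. ETS1 fell in both lines, by 0.41 ± 0.099 in HCC70 and by 1.15 ± 0.099 in MDA-MB-231, and the E-protein gene TCF3 fell by 0.30 ± 0.093 in HCC70 and by 0.38 ± 0.093 in MDA-MB-231. Of 9 other epithelial transcription factors 3 fell and 1 rose in HCC70, and 2 fell and 1 rose in MDA-MB-231. TFAP2C, an AP-2 factor, rose by 0.56 ± 0.093 in HCC70 and fell by 1.03 ± 0.093 in MDA-MB-231 (difference of the effects 1.59 ± 0.13, adjusted p = 6.4e-06), and the ETS factor EHF fell by 1.09 ± 0.084 in HCC70 (difference -0.88 ± 0.12). Of 15 TGF-beta pathway genes 4 fell, 2 rose and 9 did not pass in HCC70, and 3 fell, 4 rose and 8 did not pass in MDA-MB-231. The genes named here are among those that passed, so they do not stand for all inhibitors of the pathway. SKI and BAMBI, which encode inhibitors, rose in both lines. SKI rose by 0.75 ± 0.098 in HCC70 and 0.59 ± 0.098 in MDA-MB-231, and BAMBI by 0.63 ± 0.12 in HCC70 and 0.98 ± 0.12 in MDA-MB-231. SKIL, which encodes a relative of SKI, fell by 0.77 ± 0.10 in HCC70 and rose by 0.43 ± 0.10 in MDA-MB-231 (difference of the effects -1.20, adjusted p = 0.00011). SMAD7, the inhibitory SMAD, named after its values were seen, also fell in HCC70, by 0.78 ± 0.12, and rose in MDA-MB-231, by 0.65 ± 0.12 (difference -1.43, adjusted p = 7.8e-05). LTBP1, a latent TGF-beta binding protein, fell in MDA-MB-231 by 1.36 ± 0.097, and LTBP3 fell in HCC70 by 0.90 ± 0.091. Of 14 tight junction scaffolds and other claudins 2 fell and 2 rose in HCC70, and 1 fell and 1 rose in MDA-MB-231, where CLDN2 fell by 1.01 ± 0.12 and the scaffold gene TJP1 rose by 0.46 ± 0.085.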

How the data were processed

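Per the labels, the authors isolated total RNA with Trizol and DNase I, labelled 150 ng per sample with biotin and hybridised 12 arrays. The deposited values are log2 signals of 53617 transcript clusters, and the authors used RMA, oligo and limma, per the submitters' processing notes (no versions). No genome build for the array features was given here, and they have no coordinates.

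Of the clusters 16098 had 1 gene symbol, 0 had several and 37519 had none. Where several clusters shared a symbol (779 genes), the one with the highest mean was kept. Columns of other series numbered 0. Group means over all 12 arrays were fitted with limma 3.58.1 in R 4.3.3 (lmFit, eBayes), two-sided, with Benjamini-Hochberg adjustment over 14884 genes and calls under 0.05, and every adjusted p printed comes from this fit unless stated. Where the lower group's mean is under the lower quartile of all genes on those arrays, the difference is a lower bound. The procedure was tested on simulated data. The members and lists were chosen with earlier results of these data known, and every measured member is named or covered by a range. From each pathway list the text names at most the 2 called genes of lowest p per direction in a JQ1 comparison or the vehicle line comparison, and marker genes for the check of the lines. SMAD7, named after its values were seen, is outside this rule.

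Pairing by replicate number was judged from how deviations from group means correlate. In MDA-MB-231 same-numbered JQ1 and vehicle arrays correlated at 0.155, 0.121 and 0.362, and unlike-numbered ones at -0.25 to 0.121. In HCC70 same-numbered arrays correlated at -0.0588, 0.0147 and 0.0702. The JQ1 arrays numbered 3 of the different lines also correlated, at 0.291, so these values do not settle whether arrays were paired. The main fit has no block, and a block by replicate number was fitted as an alternative. Alternatives were this block, a variance trend with robust moderation, a filter on dim genes, cluster means, quantile normalization, median centring, a log2 difference of at least 1, only the arrays compared, each array left out, and, chosen after seeing the data, no arrays numbered 3 from HCC70 JQ1 or from either MDA-MB-231 group. In these groups that array had the lowest mean correlation with its replicates, by a small margin (0.9914 against at least 0.9917 in HCC70 JQ1, 0.9894 against 0.9899 in MDA-MB-231 JQ1, and 0.9904 against 0.9911 in MDA-MB-231 vehicle).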

Additional observations from a re-analysis of the deposited data

Results flagged for a closer look

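The JQ1 effect differed between the lines for 14 of 28 measured members, where 15.0% of all genes passed, by the test of the difference itself (HCC70 effect minus MDA-MB-231 effect, log2 scale, limma adjusted p threshold of 0.05, 3 arrays per group). The members were chosen with earlier results of these data known, so the count describes them and is not independent evidence. Among epithelial members the differences were 2.00 for EPCAM, 1.28 for LSR, 1.05 for CLDN7, 0.73 for CLDN4, 0.63 for ESRP2 and 0.63 for ST14. Among mesenchymal members they were 1.26 for LOX, 0.84 for ZEB2, 0.75 for EMP3 and 0.57 for IGFBP7 on the positive side, and -1.87 for VIM, -1.72 for FN1, -1.45 for FBN1 and -0.74 for SNAI2 on the negative side. In MDA-MB-231 EPCAM, LSR, CLDN7 and ESRP2 each had 3 JQ1 arrays below 3 vehicle arrays, and in HCC70 VIM, FN1 and SNAI2 did. The share of all genes with such a separation under JQ1 was not counted. As these genes were called on the same values, the separation is not further evidence. The calls of CLDN4, ST14 and IGFBP7 ended under some of the other settings, and the remaining 11 held in every alternative fit that tested them at the same threshold. FBN1 and ZEB2, among these 11, were not tested under the filter on dim genes, which leaves them out.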

How the results depend on the processing

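Of 84 called member results 79 kept their call in every alternative fit that tested them at the same threshold, and 5 lost it in some (CLDN4 and LOX in 1 line each, and the differences of CLDN4, ST14 and IGFBP7), while 12 of 56 uncalled results gained one in some, and 0 reversed. The filter on dim genes left 17 of the 84 without a value (CLDN4, FBN1, MARVELD3, OVOL2, ZEB1 and ZEB2, over the 5 comparisons). With the replicate number as a block, HCC70 had 2 epithelial members that rose (OVOL1 passed, adjusted p = 0.026), CLDN4 lost its call in MDA-MB-231 (0.054), and the differences of CLDN4 (0.053) and IGFBP7 (0.058) lost theirs.

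The count of epithelial members that rose in HCC70, 1 as reported, was 3 with a variance trend and robust moderation, 3 with genes above the median level only, 3 with arrays centred, 2 with cluster means, 2 with only the arrays compared and 2 without the arrays numbered 3 (chosen after seeing the data). Epithelial members that fell in HCC70, 0 as reported, numbered 2 with the variance trend, 2 with quantile normalization, 1 with genes above the median and 1 with only the arrays compared. In MDA-MB-231 mesenchymal members that rose numbered 0 with genes above the median (FBN1 is left out there) and 2 with cluster means (VIM added). The difference of the effects had 1 negative epithelial member with the variance trend and 1 with quantile normalization.

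Requiring a log2 difference of at least 1 left 3 epithelial and 2 mesenchymal members that fell in MDA-MB-231, 0 epithelial members that rose and 2 mesenchymal members that fell in HCC70, and 3 epithelial and 1 mesenchymal members with a positive difference of the effects. Over all genes it left 2204 calls between the lines under vehicle, 2285 under JQ1, 648 for JQ1 in MDA-MB-231, 380 for JQ1 in HCC70 and 607 for the difference.

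With each array left out, epithelial members that rose in MDA-MB-231 ranged from 0 to 1 (1, GRHL1, without vehicle replicate 3). Those that rose in HCC70 ranged from 1 to 2 (2 without any 1 MDA-MB-231 JQ1 array or MDA-MB-231 vehicle replicate 3) and those that fell from 0 to 1 (1 without HCC70 JQ1 replicate 2 or MDA-MB-231 vehicle replicate 1). Mesenchymal members higher in HCC70 under JQ1 ranged from 0 to 1 (1 without MDA-MB-231 JQ1 replicate 3). Epithelial members with a positive difference of the effects, 6 as reported, numbered only 4 or 5 whichever array was left out. The mesenchymal members with a positive difference, 4 as reported, numbered 3 to 4. Mesenchymal members that fell in HCC70, 4 as reported, numbered 3 to 4, and epithelial members that fell in MDA-MB-231, 6 as reported, numbered 5 to 6. The cause of these shifts was not tested. Signals under the lower quartile limit what can be seen of ESRP1 and GRHL2 in MDA-MB-231, and of ZEB1, FBN1 and EDIL3 in HCC70.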

Other observations

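Of 16 measured other matrix genes 4 rose and 4 fell in HCC70, and 1 rose and 5 fell in MDA-MB-231. Over all genes tested 9.18% rose and 12.5% fell in HCC70, and 10.8% rose and 17.0% fell in MDA-MB-231, the shares against which the counts in this and the next paragraph stand. TNC, which encodes the matricellular protein tenascin-C, fell 8.38-fold in HCC70, with 6.77 ± 0.11 in JQ1 and 9.84 ± 0.082 in vehicle (SD, n = 3 each). THBS1, which encodes thrombospondin-1, rose by 0.88 ± 0.077 in HCC70 and fell by 0.72 ± 0.077 in MDA-MB-231 (SE; difference of the effects 1.60 ± 0.11, limma adjusted p = 1.9e-06). TIMP2, an inhibitor of matrix metalloproteinases, rose 2.22-fold in MDA-MB-231, and MMP14, a membrane-bound matrix protease, fell by 1.29 ± 0.089 in HCC70.

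Of 10 measured adherens junction and polarity genes 3 rose and 1 fell in each line. LLGL2, a basolateral polarity protein, rose 1.43-fold in HCC70 and 2.80-fold in MDA-MB-231 (difference of the effects -0.97 ± 0.17, limma adjusted p = 0.0019), and PARD6B, an apical polarity protein, rose 1.50-fold in HCC70 and 1.90-fold in MDA-MB-231. Of 6 keratins 3 rose and 1 fell in HCC70 and 4 rose in MDA-MB-231, where KRT7 rose 2.59-fold. The 1 that fell in HCC70 was KRT14, by 2.04-fold (limma adjusted p = 0.0058), while KRT18 rose 1.80-fold there.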
